A study of Oryza sativa with 8 samples.

Results

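The comparison set root tips of dark-grown rice seedlings labelled calcium and ethylene against root tips labelled control, whose label names neither treatment. It was taken by the treatment labels and used 4 of the 8 RNA-seq libraries of the series, 2 labelled calcium and ethylene (replicates 2 and 3) and 2 labelled control (replicates 1 and 2). All libraries came from the rice variety Dongjin. Seeds were germinated for 2 days at 37 °C in the dark, and the seedlings then grew for 3 days at 28 °C in closed boxes, with ethylene gas at 2 ppm in the groups whose label names it. Concentrations of calcium chloride are missing from the labels, as is any word on which group had low or normal calcium. Nor do the labels say that libraries of a group came from separate seedlings or boxes, so p-values rest on a spread between libraries that may be technical.

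Ethylene is a gaseous plant hormone that is perceived by receptors in the endoplasmic reticulum membrane. Without ethylene the receptors keep the pathway off, and with it the membrane protein EIN2 passes the signal to transcription factors of the EIN3/EIL family, which change the expression of many genes. In dark-grown rice seedlings ethylene shortens the primary root. Calcium is a nutrient and a second messenger in plant cells, and the series title proposes that rice ethylene receptors let calcium and other cations pass.

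The deposited table gave gene IDs without names, and none of the 57359 IDs matched any of the 39387 genes of a rice RefSeq table. The ethylene signalling genes and the markers of root tip cell types could therefore not be looked up, the tissue label could not be checked against markers, and genes are described by level, length, position in the ID order and response. Totals of the 4 libraries ran from 19368504 to 21529126 counts. At least 1 count was found for 27441 and 29077 gene IDs in the control libraries and for 31408 and 30649 in the calcium and ethylene libraries. Correlations across genes on the log2 scale of CPM, the count scaled to library size, were 0.951 between the control libraries, 0.964 between the calcium and ethylene libraries and 0.866 to 0.899 between the groups. No pair agreed within read-counting noise, with chi-square at least 23.9 per degree of freedom.

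Roots given calcium and ethylene together differed from control in 2659 genes, of which 1378 were higher and 1281 lower. This was 9.85% of the 27008 genes tested, with 5.10% higher and 4.74% lower. The rises were larger than the falls, with a median log2 fold change of 1.68 among the genes that rose and of -1.17 among those that fell, against 0.00676 over all genes tested. A rise of at least 4-fold was seen in 545 of the genes that rose and a fall of at least 4-fold in 62 of those that fell, and at 16-fold the numbers were 180 and 3. Genes at 0 in control were counted here by a lower bound, a floor of 3 counts over the group, which covers counting error only. Calls were made with edgeR's quasi-likelihood test in a model of all 8 libraries, at a Benjamini-Hochberg adjusted p under 0.05. In bulk tissue, fewer cells of a type and less RNA per cell cannot be told apart. The number of calls rested on each of the 4 libraries: it was 61 with control replicate 2 left out, 576 with control replicate 1 left out, 102 with calcium and ethylene replicate 3 left out and 235 with its replicate 2 left out. Rises made up 75.4%, 69.3%, 89.2% and 89.8% of those calls, in the same order, and 51.8% with all libraries.

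**Figure D1:**
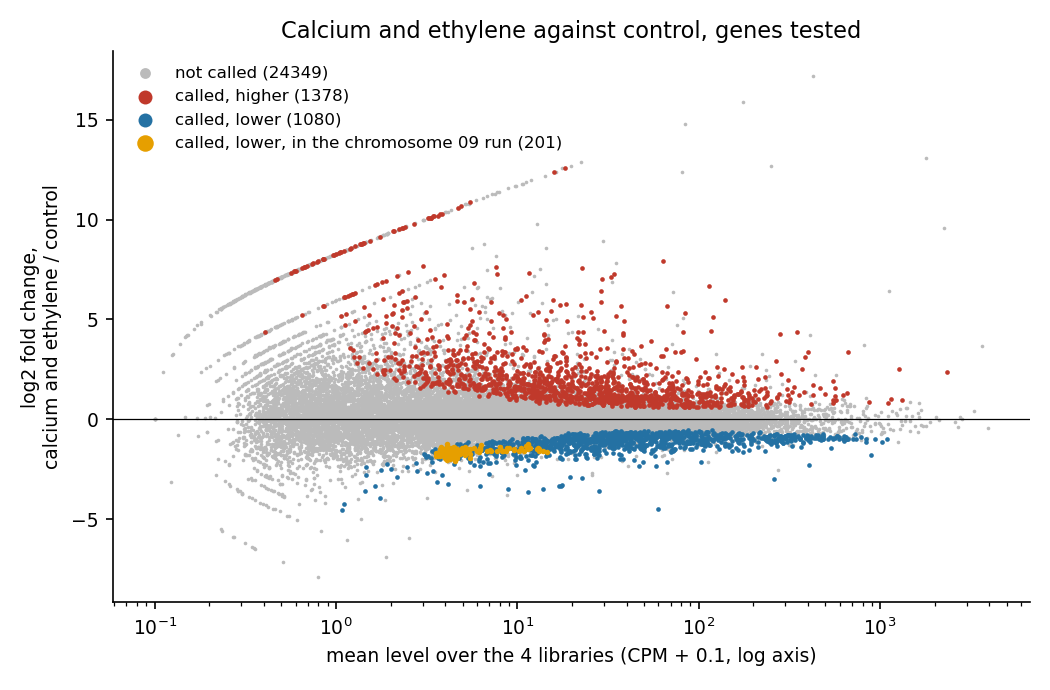
Log2 fold change of calcium and ethylene over control (y axis) against the mean level of each gene in the 4 libraries (x axis, CPM + 0.1, log scale), with 1 point per gene tested and the calls in colour. Rises reach further from 0 than falls, and the 201 called genes of the chromosome 09 run form a tight group below 0, while some genes of large fold change, in grey, were not called.

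Weakly expressed genes gave mostly rises and abundant genes mostly falls. Under 1 CPM, on the mean of the 4 libraries, 28 of 3126 genes rose and 1 fell. At 1 to 10 CPM 420 of 9702 rose and 321 fell, and at 10 to 100 CPM 766 of 12222 rose and 712 fell. The falls include 201 IDs of the chromosome 09 run described below, all of 3285 bases, which are not independent measurements. Run IDs of that length had median counts of 103 and 164 in control and 37 and 50 with both treatments. At 100 CPM or more, 164 of 1958 genes rose (8.38%) and 247 fell (12.6%). Among genes that rose, the median log2 fold change was 4.33 under 1 CPM with genes at 0 set to their bound, 2.67 at 1 to 10 CPM, 1.40 at 10 to 100 CPM and 1.19 at 100 CPM or more. The genes that rose held 4.03% and 3.75% of all counts in control replicates 1 and 2 and 9.72% and 10.8% in calcium and ethylene replicates 2 and 3. The genes that fell held 12.5% and 14.4% in control and 6.90% and 6.19% with both treatments. These genes were picked on those libraries. In the libraries outside the comparison, the risers held 3.59% and 3.34% of the calcium counts and 10.3% and 10.4% of the ethylene counts. The fallers held 13.5% and 15.6% of the calcium counts and 6.18% and 5.16% of the ethylene counts. Those libraries shared the model, in which a call favours genes whose ethylene and calcium libraries agree.

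A set of genes had no read in control and was called with both treatments. Of 376 tested genes at 0 counts in both control libraries, 55 rose, where 5.10% of all tested genes rose, by at least 10.3-fold to at least 515-fold, with a median bound of 35.4-fold. Their mean level with calcium and ethylene ran from 0.726 to 36.5 CPM, with a median of 2.50, so most were low also where they were present. In ethylene alone their median was 2.50 CPM, and all 55 had counts in both ethylene libraries. This is a description only: with no count in control they passed the filter on low counts through the other libraries, and a call in the shared model favours genes whose ethylene libraries agree. In calcium alone their median was 0.0237 CPM and the highest 0.728, and 24 of them were at 0 in both calcium libraries too. Only 17 tested genes were at 0 in both calcium and ethylene libraries. Of these, 0 were called as lower by edgeR, where 4.74% of all tested genes were. So few genes cannot show whether a converse set exists.

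Of the genes called with at least 10 counts in each of the 4 libraries, 1186 that rose and 1270 that fell showed no overlap between the groups, an order that 63.4% of all tested genes had (31.9% higher, 31.5% lower), and the 4 named below led them by fold or by CPM. AGIS_Os12g033730, with an ID on chromosome 12 and a length of 986 bases, had the largest rise in fold among these genes. Its level was 1.14 and 3.29 CPM in control replicates 1 and 2 and 197.2 and 252.3 CPM in calcium and ethylene replicates 2 and 3. The mean was 2.21 ± 1.52 (SD, n = 2) in control and 224.8 ± 38.9 CPM with both treatments. The rise was 6.65 on the log2 scale (SE 0.97, edgeR adjusted p = 0.0193). In the other libraries it was at 0.949 and 6.71 CPM in calcium and at 256.2 and 145.7 CPM in ethylene, so all 4 libraries with ethylene stood above all 4 without it. The call was lost without control replicate 1 (adjusted p = 0.0714), control replicate 2 (0.13), calcium and ethylene replicate 2 (0.0595) or replicate 3 (0.0818), and the log2 fold change was then 6.12, 7.62, 6.80 and 6.47.

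AGIS_Os04g021060, with an ID on chromosome 4 and a length of 1089 bases, had the largest fall in fold among these genes. It was at 117.5 and 109.7 CPM in control and at 3.14 and 6.98 CPM with both treatments. The mean was 113.6 ± 5.55 CPM in control and 5.06 ± 2.72 with both treatments. The difference was -4.50 on the log2 scale (SE 0.48, edgeR adjusted p = 0.00766). Calcium alone gave 152.4 and 173.2 CPM and ethylene alone 3.84 and 8.86 CPM, again with no overlap between libraries with and without ethylene. Without control replicate 2 its adjusted p was 0.0529, with a log2 fold change of -4.54.

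AGIS_Os07g043980, on chromosome 7 and 1599 bases long, gained the most CPM among the genes that met these criteria. At least 3 genes that were not called gained more. It was at 750.6 and 746.0 CPM in control and at 3568.3 and 4301.6 CPM with both treatments, higher by 2.39 log2 units (SE 0.60, edgeR adjusted p = 0.0492). Per length this was 692.8 TPM, the CPM scaled for gene length, in control and 3783.8 with both treatments. The ethylene libraries disagreed, with 3385.4 CPM in replicate 3 and 785.4 in replicate 4, the latter near the 568.1 and 694.4 CPM of calcium. The call in the model of all 8 libraries was lost under 11 of 19 alternatives, for example without calcium replicate 1 (adjusted p = 0.0786), calcium replicate 2 (0.077), control replicate 1 (0.147), control replicate 2 (0.243), calcium and ethylene replicate 2 (0.138) or replicate 3 (0.168). Without ethylene replicate 4 the adjusted p was 0.00036, and without ethylene replicate 3 it was 0.000447.

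AGIS_Os05g041660, on chromosome 5 and 707 bases long, lost the most CPM among the genes that met these criteria. It was at 1144.4 and 1609.1 CPM in control and at 376.4 and 430.9 CPM with both treatments, which made -1.77 log2 units (SE 0.34, edgeR adjusted p = 0.0255). Each library of the single treatments lay between these levels, which held for no other named gene. By group mean it also held for AGIS_Os12g033730. AGIS_Os05g041660 was at 1014.7 and 671.6 CPM in calcium and at 563.6 and 1041.3 CPM in ethylene, and those groups overlapped. Its log2 fold change was -0.71 (95% interval -1.47 to 0.06) in calcium against control and -0.78 (-1.54 to -0.01) in ethylene against control, with adjusted p = 1 and 0.141. The departure of the combined difference from the sum of the single ones was -0.28 (-1.36 to 0.79, adjusted p = 1). The fall lost its call without control replicate 1 (adjusted p = 0.054), control replicate 2 (0.158), calcium and ethylene replicate 2 (0.128) or replicate 3 (0.126).

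**Figure D2:**
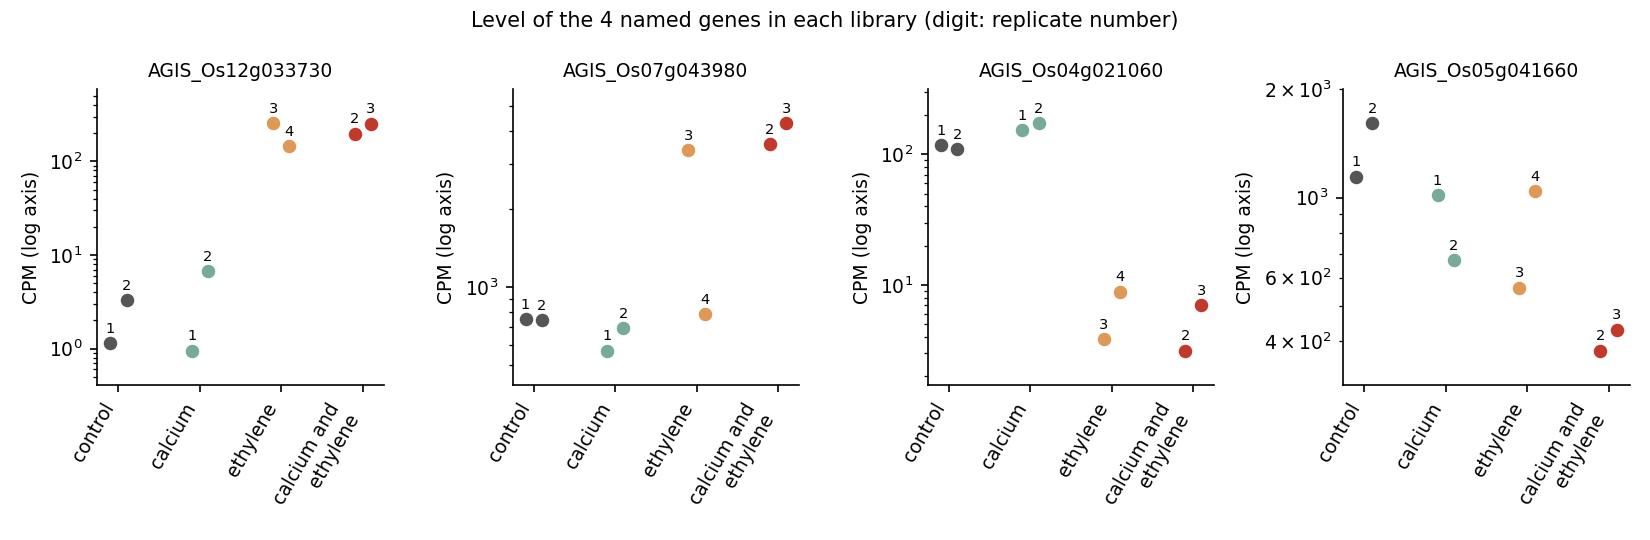
CPM (log axis) of the 4 named genes in each of the 8 libraries, 1 point per library with its replicate number. AGIS_Os12g033730 and AGIS_Os04g021060 separate all libraries with ethylene from all without, ethylene replicate 4 stays near control for AGIS_Os07g043980, and AGIS_Os05g041660 is lowest in the 2 calcium and ethylene libraries.

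The 12 rises and 12 falls of highest fold that met the same criteria followed the pattern of their leaders. The 12 rises had mean levels of 0.62 to 4.35 CPM in control and of 29.8 to 273.5 CPM with both treatments. In the libraries outside the comparison, both ethylene libraries stood above both calcium libraries for all 12. Each was called there, where 15.5% of all tested genes rose. The 12 falls had 7.35 to 464.7 CPM in control and 0.783 to 58.3 CPM with both treatments. Both ethylene libraries stood below both calcium libraries for all 12, of which 11 were called, where 12.9% of all tested genes fell. A call in the shared model favours genes whose ethylene and calcium libraries agree. The share of all tested genes without overlap between ethylene and calcium was not counted. Median length was 1682.5 bases for the rises and 949.5 for the falls.

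The most abundant transcripts of control root tips were mostly lower with both treatments. Among the 50 genes of highest level per length in control (1462.2 to 6784.4 TPM), 19 fell and 0 rose, where 4.74% of all tested genes fell (12.6% at 100 CPM or more) and 5.10% rose. The median log2 fold change was -0.60, and 34 had both calcium and ethylene libraries below both control libraries, where 31.5% of all genes tested had this order. The median length of the 50 was 855.5 bases, and the chromosome 09 run described below was left out of the choice. Among genes of 138 to 1130 bases with at least 10 CPM, 17.5% fell, and level and length were not tested apart. Together these 50 genes held 11.1% and 11.5% of all TPM in the control libraries and 8.33% and 9.14% with both treatments. Picking genes on the control libraries favours a lower value in the others, so the ethylene and calcium libraries, which did not pick them, were compared as well. There 28 of the 50 fell and 6 rose in ethylene against calcium, where 12.9% of all tested genes fell and 15.5% rose, and the median was -0.86.

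The most abundant transcripts of the treated roots, in contrast, included some that were at far lower levels in control. Of the 50 genes of highest level per length with calcium and ethylene, 24 were also among the 50 of control, 5 rose and 3 fell, against 5.10% and 4.74% of all tested genes. Picking on the treated libraries favours a higher value in them. In ethylene against calcium, whose libraries did not pick them, 14 rose and 4 fell, with 15.5% and 12.9% over all tested genes. A further 6 were at least 8-fold higher and not called (edgeR adjusted p 0.0564 to 0.138). These 6 had 0 to 688.4 TPM (median 53.6) in control replicate 1 and 2.01 to 865.7 (median 67.0) in replicate 2. In calcium and ethylene replicates 2 and 3 they had 1006.5 to 8039.4 TPM (median 3615.8) and 2094.9 to 12952.6 TPM (median 5385.9). In ethylene replicate 3 they had 1085.1 to 6927.8 TPM, and in ethylene replicate 4 they had 7.68 to 223 TPM. The groups compared did not overlap for them, an order that 31.9% of all tested genes had in this direction. With only the 4 libraries of the comparison in the fit all 6 were called (edgeR adjusted p 0.000342 to 0.0123). In that fit 9.95% of all tested genes rose. The 6 were picked on level and fold in those same libraries, which favours such a call, so this is a description only.

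The same held for large rises in general. Of 183 genes at least 8-fold higher with calcium and ethylene, with at least 10 CPM in both of those libraries and no overlap with control, 108 were called and 75 were not. The 75 had a median log2 fold change of 5.71, more than the 3.99 of the 108, and a median level of 0.696 CPM in control and 29.1 CPM with both treatments. Ethylene replicate 4 was at least 8-fold below ethylene replicate 3 in 61 of the 75 and in 5 of the 108, and the reverse was seen in 0 of 183. The median of the 75 was 30.4 CPM in ethylene replicate 3 and 1.15 CPM in replicate 4. The model takes 1 spread per gene from all 4 groups, so a gap between the ethylene libraries widens the error of a comparison that does not use them. The split into called and not called thus depended on that gap, and 61 against 5 is no separate result. The share of all tested genes with such a gap was not counted. With only the 4 libraries compared, 67 of the 75 and 106 of the 108 were called, where 9.95% of all genes tested in that fit rose. The 183 genes were picked on large differences in those same libraries, which favours such a call, so these counts are a description only.

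In the fit of the 4 libraries, 4412 genes were called, 17.0% of the 25958 tested, with 2582 higher (9.95%) and 1830 lower (7.05%). Of the 2659 genes called in the model of all libraries, 98.3% were among them, and they made up 59.3% of the larger list. Genes that were at least 8-fold lower under the same limits numbered 9, and all 9 were called in both fits.

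**Figure D3:**
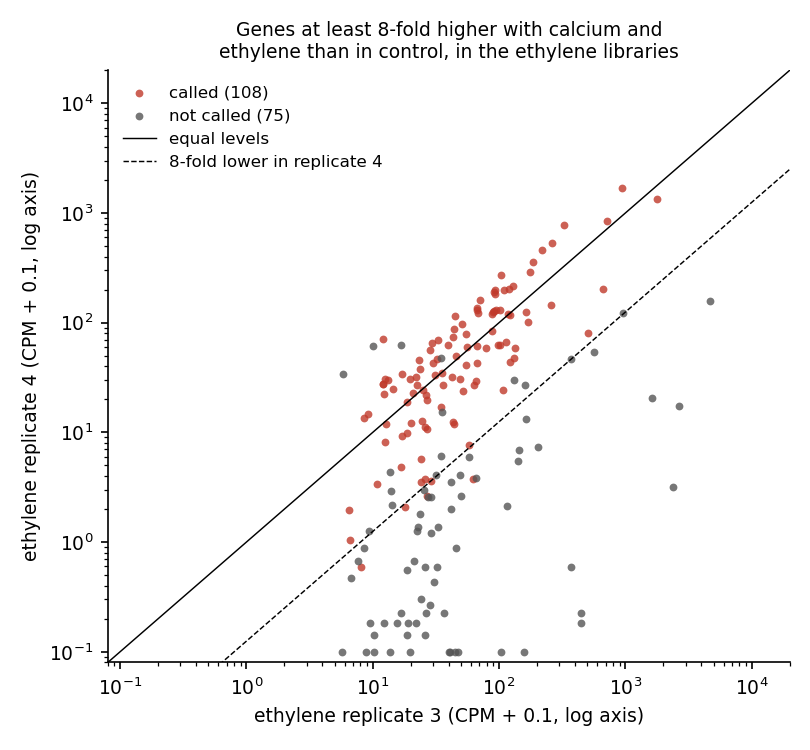
Level of the 183 genes that were at least 8-fold higher with calcium and ethylene than in control, in ethylene replicate 3 (x axis) and ethylene replicate 4 (y axis), in CPM + 0.1 on log axes, with 1 point per gene. The 108 called genes lie mostly along the line of equal levels, and most of the 75 that were not called lie below the dashed line of an 8-fold lower level in replicate 4. The call itself depended in part on the gap between these libraries.

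The ethylene and calcium libraries gave a second view of the called genes, since none of them entered the comparison, although they shared its model, in which a call favours genes whose ethylene and calcium libraries agree. Of the 1378 genes that rose with calcium and ethylene, 1158 (84.0%) also rose in ethylene against calcium, where 15.5% of all genes tested did, and 1367 had the same sign. Their median log2 fold change was 1.78 there. Of the 1281 genes that fell, 883 (68.9%) also fell, against 12.9% of all genes tested, and 1245 had the same sign, with a median of -1.11. Among falling genes outside the chromosome 09 run described below, 883 of 1080 (81.8%) fell in ethylene against calcium. A call in the opposite direction was made for 0 of the rising and 5 of the falling genes.

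More genes were called in ethylene against calcium, 7658 (28.4%), than in calcium and ethylene against control. With the replicate number as a block there were 260 and 1847 calls, in the same order. However, ethylene (replicates 3 and 4) and calcium (replicates 1 and 2) share no number. Under the block they were compared only by way of the calcium and ethylene libraries, so the block counts of both comparisons cannot be ranked. The difference between these comparisons was tested, by a contrast chosen after the data had been seen, and edgeR called no gene (2679 had an unadjusted p under 0.05, and the smallest adjusted p was 0.154). DESeq2 called 332 genes for it, edgeR with genes of low counts kept 277, and edgeR called 22 without control replicate 2 and 116 without ethylene replicate 3. Genes that opposed their direction numbered 11 of the risers and 36 of the fallers, with medians of 2.16 and -0.33 log2 units for the risers and of -1.20 and 0.30 for the fallers in the respective comparisons.

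The called genes lay far from control in ethylene alone and near it in calcium alone. The risers had a median log2 fold change of 1.67 in ethylene against control, where 1139 of them were called (9.59% of all tested genes rose), and of -0.11 in calcium against control. The fallers had -1.05, with 877 called (7.92% of all tested genes fell), and 0.06. These comparisons share the control libraries with the one described, so the values are given side by side only. Calcium and ethylene against calcium had a median of 1.78 for the risers, with 1243 called (9.40% of all tested genes rose), and of -1.23 for the fallers, with 1139 called (8.36% of all tested genes fell). Calcium and ethylene against ethylene had medians of -0.05 and 0.01. No gene was called for calcium against control or for calcium and ethylene against ethylene by edgeR, with 1037 and 2076 genes at an unadjusted p under 0.05. Whether the combined difference departed from the sum of the single differences on the log2 scale was tested as the interaction. It passed for no gene by edgeR, with 644 at an unadjusted p under 0.05, and for 1 gene each by DESeq2 and by edgeR with genes of low counts kept. It passed for 20 genes without ethylene replicate 3 and for 1 without calcium replicate 1. The 95% interval of the interaction lay within 2-fold for 57.5% of the 14293 genes averaging 10 CPM or more, and for the others the interval did not exclude a larger departure.

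Rises were more frequent among long genes and falls among short ones. Genes outside the chromosome 09 run were cut by length into 4 groups of about equal number, and the shortest (138 to 1130 bases) held 189 that rose (2.91%) and 467 that fell (7.18%). The next group (1131 to 1709 bases) held 299 and 333, and the third (1710 to 2453 bases) 406 and 186. The longest group (2454 to 16387 bases) held 484 that rose (7.46%) and 94 that fell (1.45%). The median log2 fold change of all tested genes moved from -0.14 in the shortest to 0.17 in the longest group. Among genes of at least 10 CPM it moved from -0.32 to 0.13, and 17.5% of the shortest group fell against 1.87% of the longest.

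The length pattern differed in size between libraries of 1 group. As the median deviation of log2(CPM + 1) from the mean of all libraries, the longest length group minus the shortest came to 0.27 in calcium and ethylene replicate 2 and to 0.04 in replicate 3. It was -0.08 and -0.13 in control replicates 1 and 2, -0.05 and -0.06 in calcium, 0.09 in ethylene replicate 3 and -0.02 in ethylene replicate 4. Among genes of at least 10 CPM it was 0.38 and 0.10 in calcium and ethylene replicates 2 and 3, 0.17 and 0.05 in ethylene replicates 3 and 4, -0.15 and -0.22 in control and -0.13 and -0.16 in calcium, so all 4 libraries with ethylene were above 0 and all 4 without it below. Without calcium and ethylene replicate 2 the median log2 fold change was -0.13 in the shortest and 0.07 in the longest group, with 37 and 67 genes called higher and 12 and 5 lower. Without replicate 3 the medians were -0.23 and 0.24, with 11 and 34 genes called higher and 8 and 0 lower. Most calls of every length were lost in these fits, which leave 1 library in the group. Without control replicates 1 and 2 the medians were -0.03 and 0.25, and -0.08 and 0.17. In ethylene against calcium, 14.3% of the shortest and 11.2% of the longest group fell, and 11.2% and 18.1% rose. The part of RNA quality or fragment selection in these values was not tested.

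**Figure D4:**
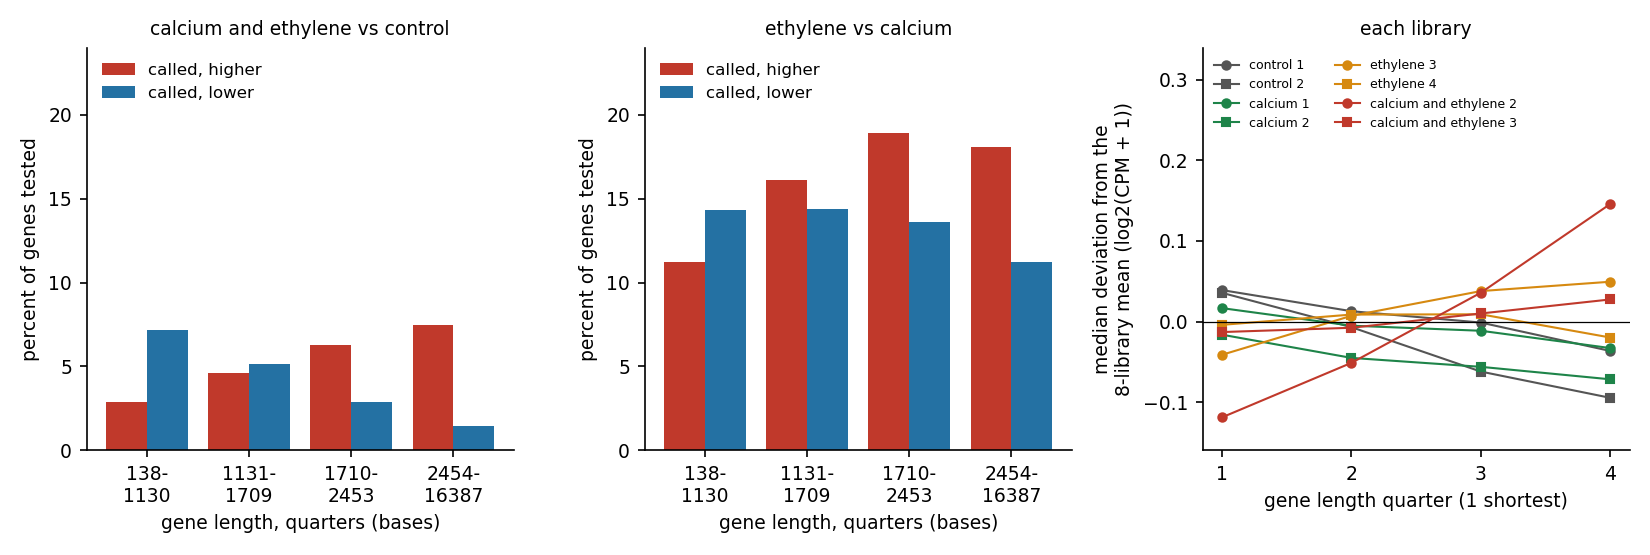
Left and middle, percent of genes called higher and lower (bars) in each of the 4 length groups, for calcium and ethylene against control and for ethylene against calcium. Right, median deviation of each library from the mean of all 8 on the log2(CPM + 1) scale by length group, where calcium and ethylene replicate 2 runs from -0.12 to 0.15 and the other 7 libraries stay closer to 0.

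By the chromosome number in the gene ID, the share of falls was highest for chromosome 9. For IDs of chromosome 9, 263 of 2475 tested genes fell (10.6%), against 2.68% to 4.90% for the other chromosome numbers. Rises made up 3.80% on chromosome 9 and 4.81% to 5.86% elsewhere, but no ID of the run described next rose. Without that run, 94 of 1454 tested IDs of chromosome 9 rose (6.46%). The excess of falls lay in 1 unbroken run of 1021 IDs that begins with the second ID of that chromosome. In this run 511 IDs of 1774 bases alternate with 510 IDs of 3285 bases, and no other run of at least 8 IDs with such repeating lengths was found in the table. The files do not say what these IDs are. For the IDs of 3285 bases, counts ran from 70 to 351 (median 103) and from 124 to 606 (median 164) in control replicates 1 and 2. In calcium and ethylene replicates 2 and 3 they ran from 21 to 148 (median 37) and from 30 to 196 (median 50). Reads that match several copies may have been placed in any of them or in none, so the IDs are not independent measurements.

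Of the falls, 201 (15.7%) were IDs of the run, all of 3285 bases, or 39.4% of the IDs of that length. All 510 IDs of 3285 bases had a negative log2 fold change, from -2.09 to -0.98 with a median of -1.50. None of the 511 IDs of 1774 bases was called, with log2 fold changes from -1.12 to -0.09. Summed over the run, the IDs of 3285 bases had 2757 and 4198 CPM in control and 944.3 and 1490 CPM with both treatments, which made -1.51 log2 units (SE 0.33, edgeR adjusted p = 0.0338). The summed IDs of 1774 bases had 2385 and 2858 CPM in control and 1319 and 2110 CPM with both treatments, which made -0.61 log2 units (SE 0.26, adjusted p = 0.168). Neither sum overlapped between the groups. Calcium alone gave 2538 and 3714 CPM for the IDs of 3285 bases and ethylene alone 1759 and 2292 CPM (log2 fold change against control -0.78, SE 0.33, adjusted p = 0.131). The interaction for these IDs was -0.58 (SE 0.46, adjusted p = 1). Outside the run, 62 of 1454 tested IDs of chromosome 9 fell (4.26%), and 4.16% of all tested genes outside the run did.

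**Figure D5:**
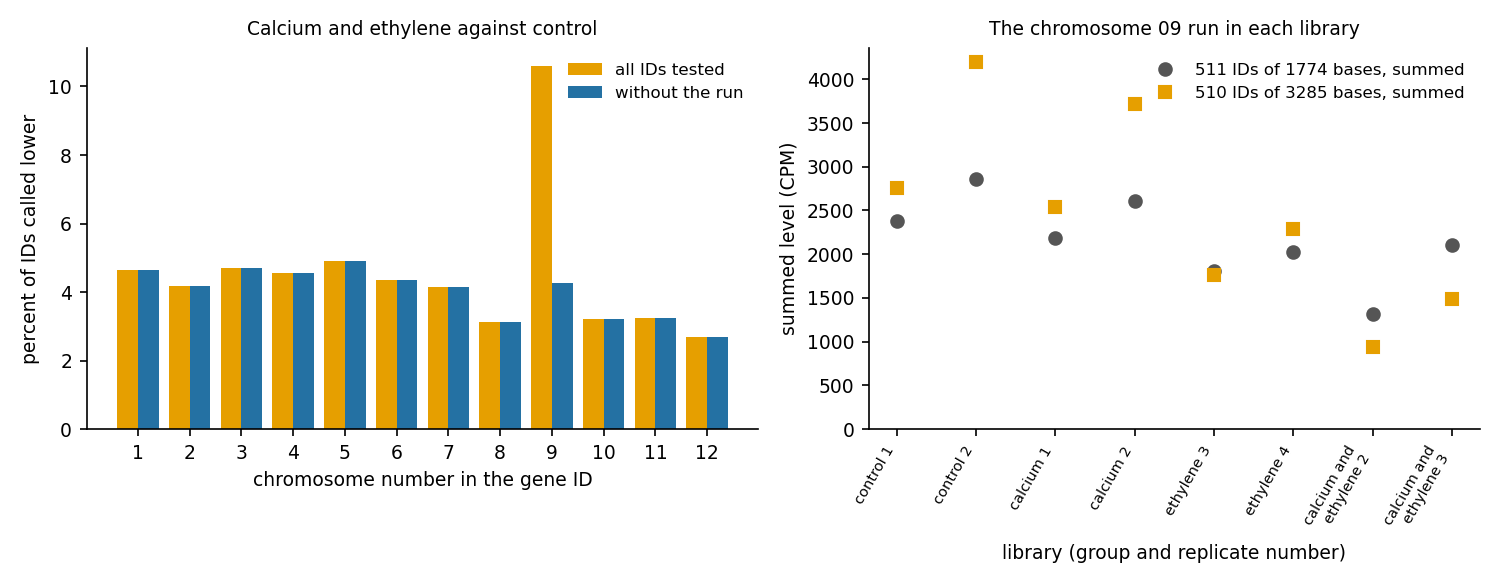
Left, percent of tested IDs called lower with calcium and ethylene, by the chromosome number in the ID, with and without the run of 1021 IDs; chromosome 9 drops from 10.6% to 4.26%. Right, summed level of the run in each library in CPM, by ID length, with the IDs of 3285 bases lowest in the 2 calcium and ethylene libraries.

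Genes next to each other in the ID order were called in the same direction in some places. Outside the run, the next tested ID on the same chromosome number also rose for 139 of the 1378 risers (10.1%), where 5.30% of tested genes rose. For the 1080 fallers it was 61 (5.65%), where 4.16% fell. The longest unbroken series of rising tested genes held 7, and 18 series held at least 3, against 4 and 5 for falling genes. Adjacent copies that share reads cannot be told from separate genes here, since neither sequences nor names were at hand.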

How the data were processed

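The authors deposited raw counts, whole numbers for each gene ID in each library, beside a gene length in bases. Per the submitters' processing notes, the authors used fastp and featureCounts, without versions given. Not given in the sources used here are the aligner, genome build, annotation, strand setting and handling of reads that match several places, so near-identical copies and overlapping or antisense genes may share reads. Columns were matched to libraries by name. In R 4.3.3 with edgeR 4.0.16, genes passing filterByExpr (minimum count 10) were kept, 27008 of 57359, holding 99.9% of all counts. Counts were scaled by TMM and fitted with 1 robust quasi-likelihood model of 4 groups, with 4 residual degrees of freedom. Benjamini-Hochberg adjustment ran over all genes tested in a contrast, and each SE was derived from the F statistic. TPM was computed from CPM and length over the genes tested. The script was tested on simulated counts. Libraries of a number were not treated as pairs: control and calcium and ethylene share only the number 2, and no label says what it marks. Deviations of same-numbered libraries correlated at 0.104 for that pair, 0.18 for control and calcium, 0.107 for calcium replicate 2 and calcium and ethylene replicate 2, and 0.0154 for ethylene replicate 3 and calcium and ethylene replicate 3.

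Named genes were those called, with at least 10 counts in each of the 4 libraries and no overlap of the groups, that had the largest fold or CPM difference in each direction. The comparison, the lists and this rule were chosen with earlier results of these data known. Alternatives were RLE, upper-quartile and library-size scaling, DESeq2 1.42.0, other filters on low counts, only the libraries compared, a replicate block, a minimum fold change of 2 (glmTreat) and the omission of each library in turn. Summing the chromosome 09 run, the contrast between the disjoint comparisons, and the sets of abundant genes with large differences were chosen with the data in view. Plots used matplotlib 3.10.9 in Python 3.11.15. Since PCR copies of a molecule are not told apart, floors cover counting error only.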

Additional observations from a re-analysis of the deposited data

How the results depend on the processing

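The 2659 calls in calcium and ethylene against control (1378 higher, 1281 lower) became 4940 with DESeq2 (2900 and 2040), 4400 with genes of low counts kept (2299 and 2101), 4412 with only the 4 libraries compared (2582 higher), 89 with a 2-fold minimum (79 and 10) and 61 to 3773 with 1 library left out (46 to 2111 higher, 11 to 1705 lower). Leaving out a library leaves 1 in its group, which is then assumed to vary like the other groups. With the replicate number as a block the comparison had 1847 calls, of which 719 were lower. No label says what the numbers mean, and only the number 2 is shared by the groups compared. Under the block this comparison therefore rested on calcium and ethylene replicate 2 alone on the treated side. Ethylene and calcium share no number, so under the block their contrast runs only through the calcium and ethylene libraries. Ethylene against calcium, with 7658 calls, had 1156 with the 2-fold minimum, 5078 with only its 4 libraries, 260 under the block, and from 3005 to 6953 on omission of 1 library. The interaction had 1 call with DESeq2, 1 with all genes kept and 0 to 20 with 1 library left out, and the difference between the disjoint comparisons 332, 277 and 0 to 116. With the chromosome 09 run summed, chosen after seeing the data, calcium and ethylene against control had 2296 calls. The other scalings kept each of these counts within 1.5 times. Rises made up 88.8% of the calls with the 2-fold minimum in place of 51.8%. None of the 4 named genes changed sign in any alternative, and over 19 alternatives each the call was lost in 5 for AGIS_Os12g033730, 11 for AGIS_Os07g043980, 1 for AGIS_Os04g021060 and 5 for AGIS_Os05g041660. Where neither the genes nor the libraries in a fit differ, the cause was not tested.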
